A study of Caenorhabditis elegans with 2 samples.

Results

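The regions described here are places inside protein-coding genes of middle and short length, away from both gene ends, where AMA-1 gave a strong chromatin immunoprecipitation signal in first-stage (L1) larvae of Caenorhabditis elegans. They were chosen by the signal of the list made from both replicates together. Of its 30000 regions, the 5000 of highest pooled signal were taken as strong, and a region was kept where its summit lay inside a protein-coding gene, more than 500 bp from the 5' and 3' end of every protein-coding gene, with every protein-coding gene over the summit shorter than 15 kb. This left 1126 regions, called gene-body regions below, in 694 host genes. The other strong regions comprised 1953 at gene 5' ends, 875 at gene 3' ends, 773 away from coding genes and 273 in the bodies of longer genes. The pooled signal chose the members, so its values are a description with no test.

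The study profiled AMA-1 by ChIP-seq (sequencing of DNA that coprecipitates with a protein) in whole L1 larvae of the wild-type strain N2, males and females pooled, age unknown. Its 2 samples are labelled biological replicates 1 and 2 of a single group, with no second condition, so no difference between conditions could be tested. The lists give, for each region, a signal value from the authors' peak caller on that list's own scale and the position of the summit, and the number of reads behind them is not known here. In whole larvae, polymerase on a gene in few cells and less polymerase in many cells cannot be told apart.

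AMA-1 is the largest subunit of RNA polymerase II, the enzyme that makes messenger RNA precursors and most small nuclear, small nucleolar, microRNA and spliced leader RNAs, whereas transfer RNA is made by RNA polymerase III. Polymerase II starts at promoters, moves through the gene body and is released past the 3' end. A region listed inside a gene body can be a place where more of it was crosslinked than on the flanking gene. The signal of the flanking gene was not read here, and 96.4% of the gene-body regions have a width of 340 bp. Many worm genes hold internal promoters, which give shorter transcripts, or carry small RNA genes inside their introns. Worm messenger RNAs often receive a spliced leader (SL1 or SL2) by trans-splicing, and SL2 is used for genes that lie downstream in operons.

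Sequences of 8 of the 15 members of highest pooled signal are shown because they carry the features that the results below describe, which are a small RNA gene beside the summit and GA-rich repeats. All are from the RefSeq WBcel235 genome, the build also called ce11, and are written 5' to 3' on the strand of the RNA gene, or of the host gene for the last pair. In the first 6, capitals mark the annotated RNA gene, which is the spliced leader gene sls-2.14 in W09D6.5 (chrIII:11090356-11090532, minus strand), the small nucleolar RNA (snoRNA) gene F01D5.12 in F01D5.10 (chrII:14018286-14018456, minus strand), the snoRNA gene T06D8.11 in plpr-1 (chrII:11224175-11224375, plus strand), the snoRNA gene C08D8.3 in C08D8.1 (chrV:8349103-8349313, plus strand), the small nuclear RNA (snRNA) gene sup-6 in F58G1.7 (chrII:12944797-12945002, minus strand), and the microRNA gene mir-54 in F09A5.3 (chrX:13144991-13145181, minus strand). In T26A8.4 (chrIV:8432242-8432402, minus strand) and mdl-1 (chrX:6742957-6743197, plus strand), capitals mark GAGAGA or its reverse complement TCTCTC.
W09D6.5 with sls-2.14: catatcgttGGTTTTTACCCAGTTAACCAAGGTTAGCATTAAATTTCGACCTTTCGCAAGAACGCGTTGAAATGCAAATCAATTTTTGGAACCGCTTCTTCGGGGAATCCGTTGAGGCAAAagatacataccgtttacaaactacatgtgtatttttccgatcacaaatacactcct
F01D5.10 with F01D5.12: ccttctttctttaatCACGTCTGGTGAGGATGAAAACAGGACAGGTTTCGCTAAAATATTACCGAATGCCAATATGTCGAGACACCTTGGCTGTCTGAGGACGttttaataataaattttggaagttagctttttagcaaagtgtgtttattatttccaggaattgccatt
plpr-1 with T06D8.11: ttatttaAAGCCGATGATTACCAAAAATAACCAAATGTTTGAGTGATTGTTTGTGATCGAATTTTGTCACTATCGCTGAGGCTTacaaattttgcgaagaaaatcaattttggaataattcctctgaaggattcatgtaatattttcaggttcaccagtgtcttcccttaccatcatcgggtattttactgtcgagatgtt
C08D8.1 with C08D8.3: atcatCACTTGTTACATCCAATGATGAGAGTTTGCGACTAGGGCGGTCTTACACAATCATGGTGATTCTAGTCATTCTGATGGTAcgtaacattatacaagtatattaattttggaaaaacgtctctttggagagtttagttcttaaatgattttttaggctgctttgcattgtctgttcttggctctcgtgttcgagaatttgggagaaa
F58G1.7 with sup-6: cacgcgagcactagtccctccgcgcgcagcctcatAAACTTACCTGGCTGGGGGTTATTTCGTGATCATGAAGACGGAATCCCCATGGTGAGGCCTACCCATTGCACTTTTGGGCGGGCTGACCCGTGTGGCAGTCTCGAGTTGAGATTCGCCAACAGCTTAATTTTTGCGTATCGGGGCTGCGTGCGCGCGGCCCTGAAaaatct
F09A5.3 with mir-54: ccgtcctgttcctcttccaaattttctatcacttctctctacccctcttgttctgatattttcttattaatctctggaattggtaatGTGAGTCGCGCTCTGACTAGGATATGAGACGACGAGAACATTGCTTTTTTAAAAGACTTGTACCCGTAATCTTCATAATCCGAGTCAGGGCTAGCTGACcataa
T26A8.4: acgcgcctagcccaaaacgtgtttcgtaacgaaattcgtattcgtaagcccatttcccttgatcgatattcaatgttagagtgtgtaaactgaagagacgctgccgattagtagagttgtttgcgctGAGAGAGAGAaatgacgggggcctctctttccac
mdl-1: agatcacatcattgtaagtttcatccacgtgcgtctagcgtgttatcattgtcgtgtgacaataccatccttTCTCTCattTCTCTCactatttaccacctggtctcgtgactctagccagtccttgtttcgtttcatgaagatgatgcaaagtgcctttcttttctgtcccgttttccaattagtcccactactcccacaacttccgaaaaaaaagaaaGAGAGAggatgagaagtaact

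The pooled signal of the 1126 regions ran from 18.21 to 416.5, with a median of 24.05, against a median of 25.68 over all 5000 strong regions, 26.96 at gene 5' ends and 24.31 in the bodies of longer genes. The distribution was skewed, with the upper quartile at 31.1 and 21 members among the 100 highest regions of the pooled list. Just inside the signal threshold stood 2 regions of let-711 at 18.22 and 18.21 and B0507.3 at 18.21, and just outside it gly-10 at 18.2, aip-1 at 18.19 and T07F8.1 at 18.18. At the limit of distance, asns-2 and mup-4 lay 501 and 502 bp from a gene end, against 500 bp for ash-2 and mat-1, which were left out. At the limit of length, the hosts unc-132 and zfp-1 spanned 14810 and 14771 bp, against 15085 and 15249 bp for asd-2 and lag-1.

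The highest member lay in an intron of F58G1.7, a gene named by its sequence only, at a pooled signal of 417, with 307 in replicate 1 and 112 in replicate 2. Its summit was 44 bp past the 3' end of sup-6, and only 78.2% of the 31-base words of the region occur once in the genome, so reads of near-identical copies could have been counted there. A second member of F58G1.7, inside sup-6 and with 98% unique words, had a pooled signal of 219, with 157 in replicate 1 and 43.7 in replicate 2. Both members stood far above the member median in both replicates. The sequence printed above is that of the second, and the summit of the highest member lies outside it.

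The next members by signal were in drap-1 and mdt-26, both genes of transcription. drap-1, whose human namesake is a subunit of a repressor of polymerase II transcription, held a region at 388, with 245 in replicate 1 and 138 in replicate 2. It lay in a 5' UTR, 38 bp downstream of an annotated internal transcript start and 97 bp from a non-coding RNA gene. mdt-26, a subunit of the Mediator complex, held a region of 316 in its first intron, with 187 in replicate 1 and 148 in replicate 2. The 5' end of mdt-26 itself carried a region of 340, so both are strong, and the inner one was 633 bp downstream of that end. W06H8.6, a gene named by its sequence only, held a region of 188, with 125 in replicate 1 and 72.7 in replicate 2. mdl-1, a basic helix-loop-helix protein of the Mad type that binds E-boxes, held the highest member on X at 148, with 108 in replicate 1 and 39 in replicate 2.

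Replicate 1 listed 95.6% of the 1126 gene-body regions and replicate 2 listed 87.7%, counting a region as listed where it held the pooled summit. The background shares over all 5000 strong regions were 95% and 89.7%. Both replicates listed 939 members (83.4%, exact binomial 95% interval 81.1 to 85.5), against 84.8% of all strong regions. None was absent from both lists, 138 were in replicate 1 alone and 49 in replicate 2 alone. Such intervals cover counting error only, and regions of 1 gene or next to each other are not independent.

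Fewer members were strong in both replicates. Among the 5000 highest regions of both lists stood 33.9% of members (31.2 to 36.8), against 38.9% of all strong regions, and the consensus list of the authors held 220 members, or 19.5% (17.3 to 22), against 26.6%. These 220 were exactly the members with a pooled signal of at least 34.5, so the consensus adds no information beyond the signal that chose the members. The median rank of a member was 2786 in replicate 1 and 3572 in replicate 2. Across the 939 members in both lists, Spearman's rho of the 2 signals was 0.09, against 0.22 over 4238 strong regions in both lists. Both replicates feed the pooled signal that chose the members, so this is given as a description.

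**Figure D1:**
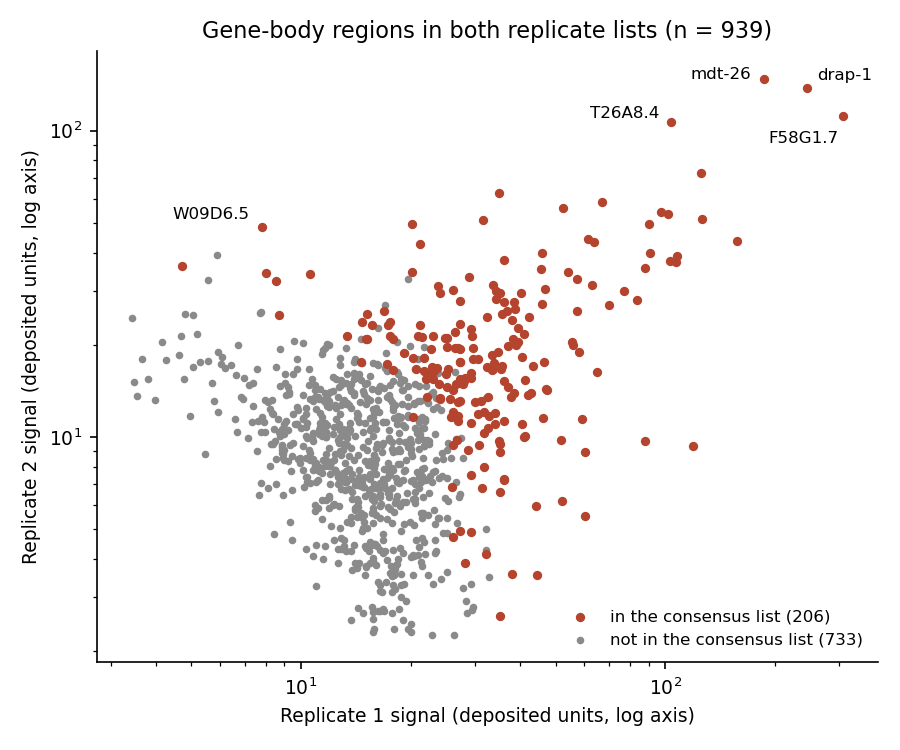
Signal of each gene-body region in replicate 1 (horizontal axis, deposited units, log axis) and replicate 2 (vertical axis, deposited units, log axis) for the 939 regions in both lists, each point 1 region, red where it is in the consensus list (206) and grey where it is not (733). The highest points, drap-1, mdt-26, F58G1.7 and T26A8.4, are high in both replicates, and W09D6.5 is at 7.83 in replicate 1 and 48.3 in replicate 2.

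In several members a region of the other replicate lay beside the pooled summit and did not hold it. W09D6.5 had a pooled signal of 140 and 48.3 in replicate 2 but 7.83 in replicate 1, and replicate 1 had a region of signal 102 with its summit 36 bp away. For mnk-1, a kinase related to those that phosphorylate the cap-binding factor eIF4E, the member of pooled signal 159 had 135 in replicate 1 and no region over its summit in replicate 2, whose nearest region began 49 bp away at 39.2. gln-3, a glutamine synthetase, had a pooled signal of 73, with 74.1 in replicate 1 and its nearest replicate 2 region 270 bp away at 26.9. daf-14, a Smad of the dauer pathway, had 52.9, with 18.5 in replicate 2 and a replicate 1 region of 33.5 that began 1 bp from the summit. adh-1, an alcohol dehydrogenase, was different, with 105 in the pooled list and 104 in replicate 1 but only 2.86 in the nearest region of replicate 2. lips-10 likewise had 36.2 in replicate 2 and no replicate 1 summit above 4.72 within 300 bp.

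By place, 631 members (56%) had their summit in an intron, 423 (37.6%) in a coding exon, 44 (3.91%) in a 5' UTR, 23 (2.04%) in a 3' UTR and 5 (0.444%) in another exon. The bases of the genome that meet the same limits of place, 35026252 in all and called eligible bases here, were 59.2% intron, 38.5% coding exon, 0.984% 5' UTR, 1.14% 3' UTR and 0.194% other exon. Introns and coding exons were thus held in nearly the share that eligible bases would give. The intervals for 5' UTR, 2.85 to 5.21%, and 3' UTR, 1.3 to 3.05%, lay above the shares of eligible bases, and that for introns, 53.1 to 59%, lay just below. No test over regions was made, since regions are not replicates.

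Within introns, 29.2% of the 631 members (25.6 to 32.9) lay in the first intron of the host, against 17.9% of eligible intron bases. Introns of at least 1000 bp held 56.1% of them (52.1 to 60), against 45.3% of eligible intron bases, and the median intron was 1349 bp, against 891 bp per base. Summits lay a little toward the 5' side of the gene, at a median of 45.2% of its length, against 50.1% for eligible bases. Between 20 and 30% of the gene length lay 15.1% of members, against 11.7% of eligible bases, and between 80 and 90% lay 6.04%, against 8.56%. Chromosome III held 21% of members (18.7 to 23.5) and 15.6% of eligible bases, and X held 13.6% (11.6 to 15.7) and 17.2%. Over all strong regions the shares were 19.9% on III and 11.6% on X, so the members were near that background on III and not below it on X.

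Annotated internal transcript starts were near many members. A protein-coding transcript began within 500 bp of 258 summits (22.9%, 20.5 to 25.5), against 8.92% of eligible bases and 14.9% of the 9045 gene-body regions of lower pooled signal in the same kind of place. All 258 starts were on the strand of the host, which the rule nearly fixes, since it leaves only starts inside genes that cover the summit and 15 members have more than 1 such gene. In long gene bodies the share within 500 bp was 21.2%. Within 250 bp the shares were 14.6% of members (12.6 to 16.8) and 4.56% of eligible bases. The summits were spread on both sides of the start, 46.5% of them upstream, at a median of 15 bp downstream.

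**Figure D2:**
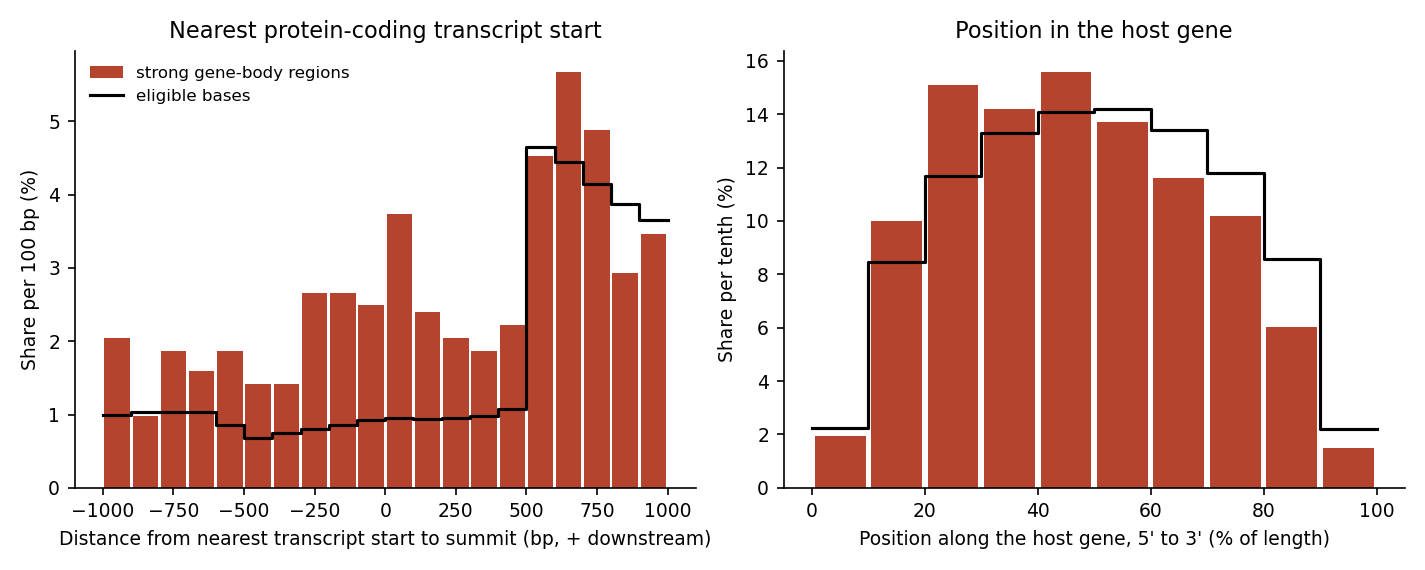
Left, share of gene-body regions (red bars) and of eligible bases (black line) per 100 bp of distance from the nearest protein-coding transcript start to the summit, positive downstream; right, the same per 10% of the host gene length, from 5' to 3'. From 0 to 100 bp past a start lie 3.73% of regions and 0.959% of eligible bases, and the step of both at 500 bp comes from the rule, which leaves out the first 500 bp of each gene.

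Among intron members with an internal start, T26A8.4 held a region of 146 lying 292 bp upstream of one, with 107 in replicate 1 and 37.2 in replicate 2. ubq-1, the polyubiquitin gene, held a region of 115 lying 168 bp upstream of one, with 90.9 in replicate 1 and 39.8 in replicate 2. tent-5, a poly(A) polymerase of the terminal nucleotidyltransferase family, held a region of 74.6 lying 294 bp upstream of one, with 55.3 in replicate 1 and 20.4 in replicate 2. All were high in both replicates.

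Among coding exon members with an internal start, pcf-11, a factor of transcript cleavage and termination, held a region of 98.9 lying 83 bp downstream of one, with 20.2 in replicate 1 and 49.7 in replicate 2. Y43F8B.2 held a region of 92.7 lying 94 bp downstream of one, with 63.1 in replicate 1 and 31.4 in replicate 2. E01G4.3 held a region of 82.4 lying 28 bp downstream of one, with 31.5 in replicate 1 and 51 in replicate 2. The replicate 2 value was the larger in pcf-11 and E01G4.3, although the replicate 1 value was larger in 738 of the 939 members in both lists. Each list has its own scale, with member medians of 17.14 in replicate 1 and 10.44 in replicate 2. The larger value is therefore no measure of more AMA-1.

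The genes with most members held several listed regions along their length. mnk-1 led with 16 members, followed by tent-5 with 10, mtm-3 (a myotubularin phosphatase) with 9, and nhr-19 (a nuclear hormone receptor) and M01H9.3 with 8 each. Of the 694 hosts, 472 held 1 member and 222 (32%) held at least 2. For 95 members (8.44%) the listed region overlapped that of another member.

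The 16 members of mnk-1 spanned its whole body, from 881 to 11665 bp past its annotated 5' end. The second of its highest members, of pooled signal 157, with 102 in replicate 1 and 53.4 in replicate 2, lay 2929 bp past that end in an intron of 4572 bp. The highest, of 159, lay 6170 bp past it and 49 bp downstream of an annotated start. The annotated 5' end of mnk-1 itself carried a region of only 26.6, below every one of its 16 members. The strongest region near it, of 199, lay past its 3' end and is no member. tent-5 had 74.6 at its highest member, against 13.2 at its own 5' end, and mtm-3 had 36.4, 57 bp from a non-coding RNA gene, against 8.34. nhr-19 had 61.7, against 35.9 at its own 5' end. M01H9.3 went the other way, with 48.7 at its highest member, against 53.4 at its 5' end.

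**Figure D3:**
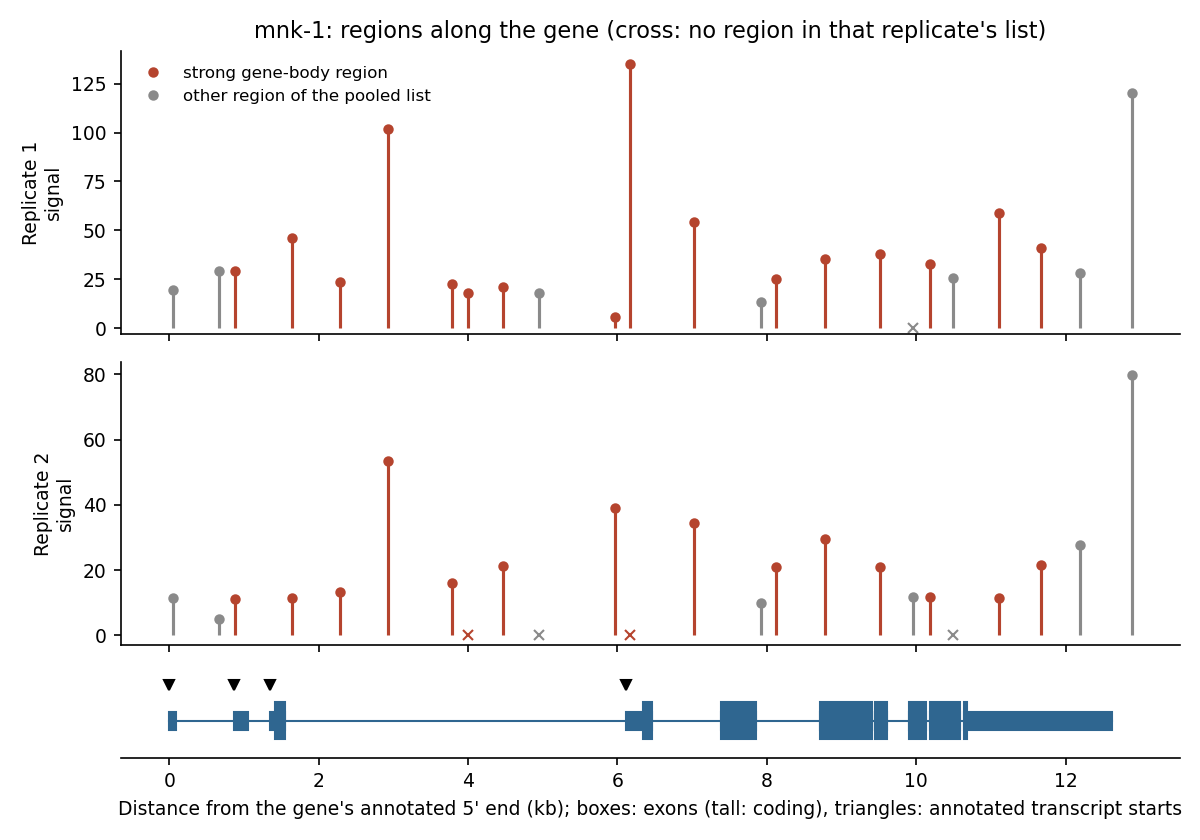
Signal of each listed region along mnk-1 in replicate 1 (top) and replicate 2 (middle), in deposited units, against distance from the annotated 5' end of the gene in kb; red marks the 16 gene-body regions, grey the other regions of the pooled list, and a cross a pooled region whose summit no region of that replicate holds. Below, boxes show exons (tall where coding) and triangles annotated transcript starts; in both replicates the regions near 2929 bp and near the last start stand above that at the 5' end.

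Over all members, the 5' end of the host carried some listed region in 84.1% of cases (81.8 to 86.2) and a strong one in 45.7% (42.8 to 48.7). Where it carried one, the inner region was the higher in 606 of 947 cases (64%, 60.8 to 67.1), but the inner regions were chosen for high signal and those at the 5' ends were not. Counted by gene, 43.2% of the 694 hosts (39.5 to 47) held a strong region at their 5' end.

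RNA genes lay beside many of the strongest summits. An RNA gene other than a piRNA or rRNA gene was within 150 bp of 125 summits (11.1%, 9.33 to 13.1), against 2.66% of eligible bases and 3.77% of the lower gene-body regions (3.39 to 4.18). The share over all strong regions was 11.6% (10.7 to 12.5), so that of the members was near this background, and it was 13.9% in long gene bodies and 21.1% away from coding genes. The distance was chosen after values were seen. By rank of pooled signal, the share was 30% in the 50 highest members (17.9 to 44.6), 19.3% in the next 150 (13.3 to 26.6) and 8.75% in the remaining 926 (7.01 to 10.8). It was 9 of 15 among the 15 highest. The other strong regions were not split by rank, so whether this gradient is particular to gene-body regions was not tested. Of the 125 summits, 86 were beside a non-coding RNA gene of no more specific class (7.64% of members, against 8.76% of all strong regions). Genes of the short RNA classes below were beside 63, and a summit can count in both. Among the 50 highest members these counts were 8 and 12. Summits inside an RNA gene were fewer, at 45 (4%, 2.93 to 5.31), against 1.14% of eligible bases and 5.44% of all strong regions.

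Genes of short RNAs, which are spliced leader, snRNA, snoRNA, microRNA and tRNA genes, were within 150 bp of 63 members (5.6%, 4.33 to 7.1), against 0.459% of eligible bases, 0.851% of lower regions and 3.68% of all strong regions (3.18 to 4.24). The share was also 5.6% at gene 3' ends, so it was not particular to gene bodies. It was 4.53% away from coding genes, 2.56% in long gene bodies and 1.54% at gene 5' ends. snoRNA genes, whose products guide the modification of other RNAs, were beside 30 members (2.66%, 1.8 to 3.78), against 0.138% of eligible bases and 1.66% of all strong regions. The snoRNA share was 2.06% at gene 3' ends, 2.07% away from coding genes, 1.1% in long gene bodies and 0.819% at gene 5' ends. tRNA genes were beside 19 members (1.69%, 1.02 to 2.62), against 0.204% of eligible bases and 0.9% of all strong regions, but 14 of the 19 had under 90% unique words and 5 had more. The tRNA share was 1.83% at gene 3' ends, 0.517% away from coding genes and 0.307% at gene 5' ends. Of the 63 members beside a short RNA gene, 42 had at least 90% unique words, as did 29 of the 30 beside a snoRNA gene. Spliced leader genes were beside 5 members (0.444%, 0.144 to 1.03), against 0.00637% of eligible bases and 0.3% of all strong regions. MicroRNA genes were beside 5 (0.444%, 0.144 to 1.03), against 0.0614% of eligible bases and 0.5% of all strong regions. snRNA genes were beside 4 (0.355%, 0.0969 to 0.907), against 0.0495% of eligible bases and 0.34% of all strong regions. In the spliced leader, microRNA and snRNA classes the interval held the share of all strong regions, so no excess particular to gene bodies was seen there. The snoRNA and tRNA intervals lay above that share. They held the shares at gene 3' ends, 2.06 and 1.83%. In the tRNA class the summit was mostly upstream of the gene (15 of 20 pairs of summit and gene), and the median signal of those members was 27, near the 24.05 of all members.

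**Figure D4:**
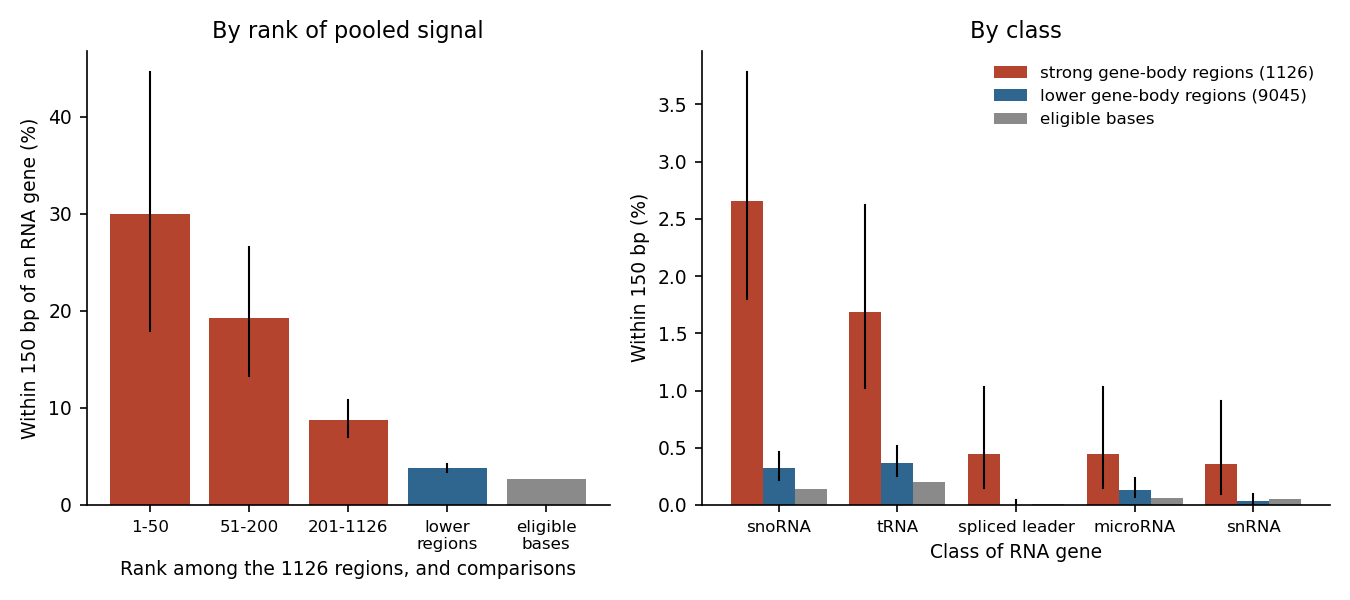
Left, percent of summits within 150 bp of an RNA gene by rank of pooled signal among the 1126 regions (red), in the lower gene-body regions (blue) and for eligible bases (grey); right, the same by class of RNA gene. Black lines are exact binomial 95% intervals; the share is 30% in the 50 highest regions and 2.66% for eligible bases.

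The snoRNA members fell on different sides of the gene by signal. In the 8 pairs of highest signal, 176 to 59.8, the summit lay downstream of the snoRNA gene in 6, inside it in 2 and upstream in none. In the other 23 pairs, 58.8 to 19.7, it lay upstream in 20, inside in 1 and downstream in 2. The point of division was chosen after the values were seen. F01D5.10 had 176 (126 in replicate 1 and 51.4 in replicate 2) with its summit 8 bp past F01D5.12. plpr-1 had 141 (103 in replicate 1 and 37.6 in replicate 2) with its summit 77 bp past T06D8.11, and C08D8.1 had 137 (90.2 in replicate 1 and 49.7 in replicate 2) with its summit 86 bp past C08D8.3.

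The sequence just past these genes held a shared word. The longest word common to the 100 bases downstream of F01D5.12, T06D8.11 and C08D8.3 was AATTTTGGAA, which begins 12, 22 and 23 bases past the 3' ends of those genes and can be read in the sequences above. In the whole genome only 7 of 346 snoRNA genes (2.02%) had it within 100 bases downstream on their own strand. The 3 genes it was derived from hold it by construction and were picked for high signal. Of the other 4, 3 had a strong AMA-1 region within 150 bp, against 78 of all 343 snoRNA genes left without the source genes, these 4 included. The fourth member with the word, named for holding it, was in ltd-1, at 59.8 (43.3 in replicate 1 and 17.1 in replicate 2), 45 bp past K02C4.7. Without the 3 source genes, 1 of 27 snoRNA genes beside a member in eligible places had it, and 0 of 81 with no member beside them, which allows a share of up to 3.7%, taken as 3 counts of the total. Among gene-body windows as a whole the word was no more common, at 1.33% of members and 1.65% of eligible windows. The word was sought after the values of these genes were seen. The same letters with 1 more T, AATTTTTGGAA, begin at base 72 of sls-2.14 and occur in 13 of the 18 sls-2 genes.

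SL2 genes were beside the members of 2 hosts that the naming rule reached. In W09D6.5 the summit lay 16 bp past the 3' end of sls-2.14. glr-2, a glutamate receptor subunit, held members of 43.9 inside sls-2.5 and 43.5 inside sls-2.18. Outside the naming rule and chosen after its values were seen, another member of glr-2, of 101 (61.2 in replicate 1 and 44.3 in replicate 2), had its summit 30 bp past sls-2.16. The member at sls-2.5 had 37.9 in replicate 1 and 3.56 in replicate 2, with 68.7% unique words, and that at sls-2.18 had 75.8% unique words. F09A5.3 had 147 (97.5 in replicate 1 and 54.1 in replicate 2) with its summit 47 bp upstream of mir-54, which is on the strand opposite to the host.

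The 300 bp windows centred on the summits were richer in G and C, with a median of 40.7%, against 36.3% in 101898 windows that tile the eligible bases and 37.3% at lower gene-body regions. Strong regions in long gene bodies, at 41%, and away from coding genes, at 40.3%, were alike. Those at gene 5' and 3' ends were lower, at 37.7 and 36.7%. Motifs were searched on both strands as the TATA box TATAAA, the GATA site TGATAA, the E-box CACGTG, the GAGA repeat GAGAGA, a run of 6 T (TTTTTT), the splice acceptor TTTTCAG and the heat shock element (GAA, any 2 bases, TTC, any 2 bases, GAA). A match is only the letters, and says nothing of a bound factor.

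The GAGA repeat stood out by place. In introns, 39.5% of members held it, against 12% of eligible windows and 18.9% of lower regions. In coding exons the shares were 17.5% of members, 14.8% of eligible windows and 15.6% of lower regions. Over all places the share was 31.2% of members and 13.2% of eligible windows. Set beside that, it was 28.5% at gene 5' ends, 52.5% away from coding genes and 44% in long gene bodies. In introns of long genes it was 46.3%, so a high share was not seen in short gene bodies alone. It was 35.4% of 144 intron members with an internal start and 40.7% of 487 without one. The share was 47.3% of 184 members in first introns and 36.2% of 447 in other introns, and 57.2% of 138 intron members of the consensus list.

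The E-box behaved alike in direction, with 10.9% of intron members, 4.5% of eligible intron windows and 5.86% of lower intron regions, but 6.86%, 6.75% and 6.9% in coding exons. At other strong regions its share was 9.25% in introns of long genes and 13.1% away from coding genes. It was 7.42% at gene 5' ends and 7.2% at gene 3' ends. The TATA box was in fewer members, at 17.5%, against 26.4% of eligible windows, and so was the run of T at 60.1%, against 69.3%. The GATA site was at 24.8%, against 24.6%, the splice acceptor at 24.2%, against 30.9%, and the heat shock element at 1.6%, against 2.32%. The TATA box was also below eligible windows in long gene bodies (20.9%) and away from coding genes (22.1%). It was at 29.5% at gene 5' ends and 28.9% at gene 3' ends. The part of base composition in these shares was not tested. T26A8.4, printed above with its GAGA repeat, had 205 (104 in replicate 1 and 107 in replicate 2), 591 bp past its 5' end.

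**Figure D5:**
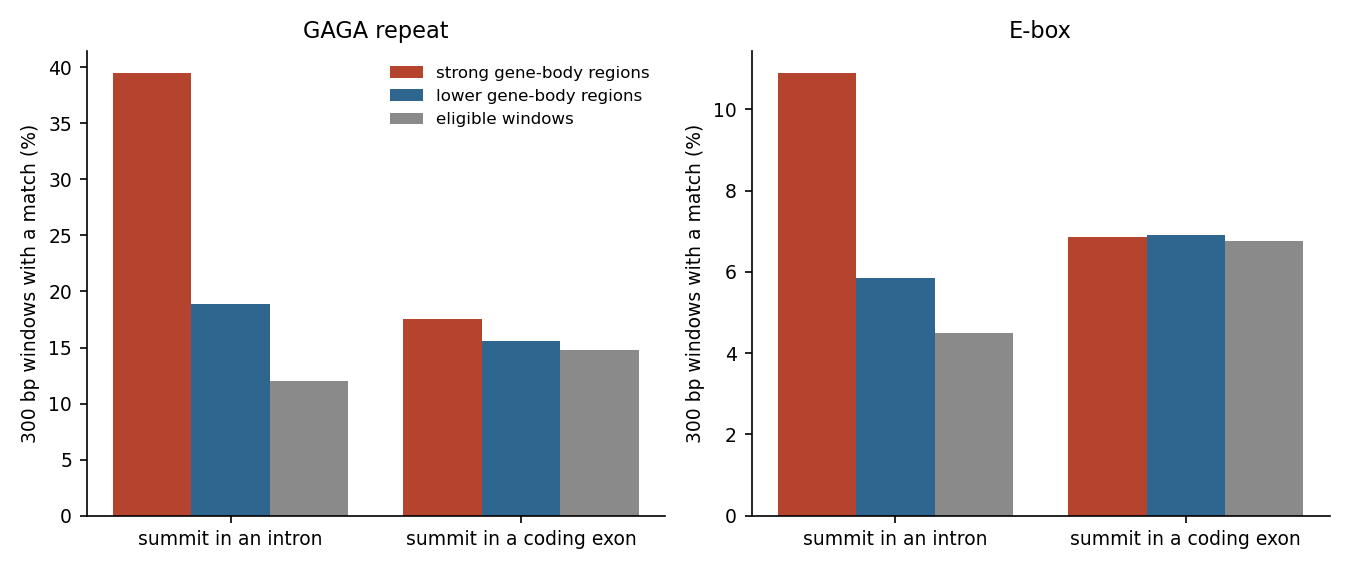
Percent of 300 bp windows with a GAGA repeat (left) or an E-box (right), for summits of the gene-body regions (red), summits of lower gene-body regions (blue) and eligible windows (grey), by whether the centre lies in an intron or a coding exon. In introns the GAGA repeat is in 39.5, 18.9 and 12% of these windows, and in coding exons in 17.5, 15.6 and 14.8%.

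By family, genes for chaperones, which fold and refold proteins, were hosts most often among the lists of gene families. Of 15631 protein-coding genes with eligible bases, 4.44% were hosts, and of 54 chaperone genes 18 were (33.3%), with 36 members or 264 per eligible Mb, against 32.1 per Mb over all genes. hsp-90 had 76.2 (65 in replicate 1 and 16.3 in replicate 2) in a coding exon. dnj-20 had 5 members, the highest at 69.4 (40.2 in replicate 1 and 29.6 in replicate 2). hsp-110 had 4 members, all in coding exons, the highest at 56.8 (35.7 in replicate 1 and 25.2 in replicate 2). Outside the naming rule and chosen after its values were seen, hsp-1 had 3, the highest at 55.3 (51.6 in replicate 1 and 9.74 in replicate 2) and 61 bp from a snoRNA gene. All these summits of highest signal were listed in both replicates. The median over the 36 chaperone members was 22.8, near that of all members, and 6 of the 36 were in the consensus list. With the 2500 highest regions in place of 5000, 11.1% of the chaperone genes were hosts. Hosts among all 15631 genes also fell in that setting, to 317 from 694.

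The lists for the V-ATPase, the respiratory chain and the proteasome had shares above that of all genes. Hosts were 3 of 15 genes for the V-ATPase, the proton pump of acidic organelles (20%), with vha-16 at 37.5, vha-13 at 24.3 and unc-32 at 23.9. Of 27 genes of the respiratory chain and ATP synthase, 5 were hosts (18.5%), with atp-2 at 37.7 and cyc-2.1 at 29.1, neither of them held by a replicate 2 region. Of 26 proteasome genes 4 were hosts (15.4%), with rpn-6.1 at 42.8 and rpn-8 at 27, the second 65 bp from a snoRNA gene. Members per eligible Mb were 112 for the V-ATPase, 138 for the respiratory chain and 207 for the proteasome, against 32.1 over all genes. These lists are small, and no test of a list was made. Cytosolic ribosomal protein genes were mostly too short to have eligible bases, with 17 that had some and 1 host, rpl-6 at 23.9 and 10 bp from a snoRNA gene. Its 1 member on the 3894 eligible bases of that list makes 257 per Mb.

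Nuclear hormone receptor genes, the large worm family of ligand-regulated transcription factors, numbered 22 hosts of 267 (8.24%) with 48 members, or 86.4 per eligible Mb. nhr-19 held 8, the highest at 61.7 (34.3 in replicate 1 and 30 in replicate 2), nhr-17 held 3, the highest at 55.5 (32.5 in replicate 1 and 24.6 in replicate 2), and nhr-46 held 3, the highest at 44. The highest region of nhr-17 had 78.1% unique words and lay 32 bp from an RNA gene. The muscle structure list had 5 hosts of 43 (11.6%), at 36 members per eligible Mb close to the 32.1 over all genes, all with low members such as unc-15, the paramyosin gene, at 22.5 and unc-54, a muscle myosin heavy chain, at 21.5.

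Large families of receptors, cuticle and protein turnover genes gave few hosts. Chemoreceptor genes, the largest list, gave 2 hosts of 1255 (0.159%), of which srh-2 held 3 members at 66.5, 59.7 and 44.1. Cuticle collagen genes gave 1 of 145 (0.69%), rol-6 at 20.6, which no replicate 1 region held. F-box and BTB-MATH genes gave 2 of 386 (0.518%), and homeobox regulators 2 of 73 (2.74%), ceh-38 at 20 and ceh-13 at 19.5. Neuropeptide genes gave 0 of 61 and small RNA pathway genes 0 of 55. Some remaining lists were above the 4.44% of all genes. These were the cytoskeleton with 7 of 77 (9.09%), RNA polymerase II and Mediator with 2 of 29 (6.9%), aminoacyl-tRNA synthetases with 2 of 32 (6.25%) and chromatin regulators with 6 of 99 (6.06%). Their members per eligible Mb were 31.6, 43.4, 21.9 and 26.1, against 32.1 over all genes. Splicing and export gave 2 of 50 (4%) and translation factors 1 of 39 (2.56%).

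On X, the highest members after mdl-1 and F09A5.3 were in rme-4, aak-2 and ZK470.2. rme-4 had 64.2 (37.9 in replicate 1 and 24 in replicate 2), 94 bp upstream of an internal transcript start. aak-2, a catalytic subunit of the AMP-activated kinase, had 58.7 (28.9 in replicate 1 and 33.4 in replicate 2) in its first intron, 433 bp upstream of an internal start, and ZK470.2 had 56.8 (26.1 in replicate 1 and 30.2 in replicate 2), 147 bp downstream of an internal start. All were in introns and were listed in both replicates.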

How the data were processed

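AMA-1 ChIP-seq regions of 2 biological replicates of whole N2 L1 larvae were used on build ce11. Per the deposited notes, each replicate's list, a list from the pooled alignments and a consensus list from an irreproducible discovery rate analysis were made by the authors against a control, and replicates were not pooled in their own lists. For the peak caller, its version, its threshold and the depth, nothing is stated in the sources used here. The signal of each region is the authors' deposited peak caller value and was used without rescaling; signals of separate lists were set side by side or by rank, never averaged. The deposited −log10 q-value has an upper limit shared by many regions and was not used to choose or rank regions. Summits came from the offset in the deposited lists, which is in bp.

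Genes came from Ensembl release 115 (WBcel235) and sequence from RefSeq. Places were coding exon, then 5' UTR, 3' UTR, other exon and intron. A member's replicate value was the highest signal among that replicate's regions holding its summit. Host means the shortest protein-coding gene over the summit, of more than 1 in 15 members. Unique words are 31-base words found once in the genome; 96.5% of members had at least 90% of them. Intervals given with shares are exact Clopper-Pearson 95% intervals, and shares of motifs, the shared word and host lists are given without one. No test, resampling or p-value was used. Region placing was checked on made-up gene models with known answers. The labels call the replicates biological, with a biosample each.

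Members and lists were chosen with earlier results of these data known. Named are the 15 members of highest signal, the 3 highest of each place, class of RNA gene over the summit and host list, the 5 hosts with most members, the 5 highest on X, the 5 whose ranks differ most and the 3 highest missing from each replicate, those nearest each limit, and the 5 highest with an internal start in exons and introns; the text gives examples from each set. Other RNA and snoRNA genes are named as neighbours. Lists on ce10 were not used here. Alternatives are given in the closing section. Computations used Python 3.11.15, numpy 2.4.6, pandas 2.3.3, scipy 1.17.1 and matplotlib 3.10.9.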

Additional observations from a re-analysis of the deposited data

How the results depend on the processing

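Under 142 alternatives over the number of members, their signal, replicate and place shares, RNA genes, internal starts, host 5' ends, the GAGA repeat in introns and chaperone hosts, 83 values moved by less than the counting interval or stayed within 1.5 times the main count and 59 moved more; none of the shares has a test. Taking the 2500 or 10000 highest regions gave 478 or 2714 members of median signal 33.1 or 17, with 90.2 or 71.1% in both replicate lists, 46 or 8.11% in the consensus list, 32.6 or 41.6% in coding exons, 25.5 or 19.2% near an internal start and 32.2 or 52.9% of hosts with a strong 5' end; 59.8% were in introns with 2500, and 2.84% of summits were in an RNA gene with 10000. With ends of 1000 bp there were 742 members, 62% in introns, 32.6% in coding exons and 0.135% in other exons. With ends of 250 bp, 51% were in introns, 40.9% in coding exons, 7.72% in UTRs and 31.4% near an internal start, and 49.3% of hosts had a strong 5' end. With hosts under 10 kb, 50.9% were in introns, 42.3% in coding exons, and 48% of hosts had a strong 5' end. Counting any overlap put 93.1% of members in both lists, and counting replicate summits within 150 bp put 79.7% there. An internal start lay within 250 bp of 14.6%, and a 250 bp window gave a strong 5' end to 30% of hosts. Keeping only members among the 5000 highest of both replicate lists, chosen after seeing the data, left 382, with a median of 33.5, 100% in both lists by construction, 47.6% in the consensus list, 59.7% in introns, 32.5% in coding exons, 7.59% in UTRs, 5.5% inside an RNA gene and 26.2% near an internal start.

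When the 5000 highest regions of 1 replicate's list stood in for the pool, the range over the 2 lists was 11.7 to 16.9 for the median signal (on the lists' own scales), 52.2 to 59% for introns, 35.1 to 42.1% for coding exons, 3.46 to 4.27% for summits inside an RNA gene, 20.5 to 21.7% for internal starts and 40.2 to 42.5% for hosts with a strong 5' end. Such lists could not give the shares in both replicate lists or in the consensus list. The share within 150 bp of an RNA gene was 9.67 to 10.1% in those lists, 9.38% among regions of at least 90% unique words, 14.6% with 2500 regions, 7.18% with 10000, 16.5% among members strong in both replicates, and 7.02% within 50 bp, against 1.57% of eligible bases. The share of intron members with a GAGA repeat was 35.5 to 36.3% in those lists, 46.2% with 2500 regions, 31.7% with 10000 and 48.2% among members strong in both replicates. First introns, positions, chromosomes, other motifs, snoRNA sides, the shared word and the other host lists were not recomputed. Among chaperone genes, 29.6 to 33.3% were hosts in those lists, 11.1% with the 2500 highest regions and 13% with members strong in both replicates. Hosts among all genes also fell from 694, to 317 with the 2500 highest regions and 263 with members strong in both replicates. No paired analysis was possible because both samples belong to 1 group. Read depth is unknown, so the limit it sets on weak regions cannot be stated, and the signal scale of the caller is unknown too, so sizes are relative within a list.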
